A study of Mus musculus with 16 samples.

Results

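The 10 genes described here regulate T cell activation or mark the T cells that restrain it. They are Cd274 (PD-L1) and Pdcd1lg2 (PD-L2), the ligands of PD-1, the receptor genes Pdcd1 (PD-1), Ctla4, Icos, Havcr2 (TIM-3), Tigit and Lag3, the transcription factor gene Foxp3 and the cytokine gene Il10. They were listed by gene symbol with no filter on measured level, but the choice was made with earlier results of these data known. Each was read by 1 probe set. All 10 were found among the 19938 genes measured, and none was left out for a low level.

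Immune checkpoints are receptor and ligand pairs that dampen T cells after activation. CTLA-4 competes with the co-stimulatory receptor CD28 for CD80 and CD86 on antigen-presenting cells, and PD-1 is engaged by PD-L1 and PD-L2 on macrophages, dendritic cells and other tissue cells. Regulatory T cells, which depend on FOXP3, carry CTLA-4, ICOS and TIGIT and can secrete IL-10. In the lung these brakes limit tissue damage in chronic inflammation and are also used by tumors.

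RNA from whole lungs of C57BL/6 mice, with a stated age of 10 to 12 weeks, was hybridised to 16 Affymetrix arrays after crystalline silica (CS, the mineral dust behind silicosis) or phosphate buffer saline (PBS) had been placed in the trachea. At day 60 the groups were BLT1-/-KRasLA1 CS and BLT1+/+KRasLA1 CS, with 3 lungs each, against a PBS pool of 3 mice of each genotype. At day 2 they were BLT1-/- CS and BLT1+/+ CS, again with 3 lungs each, against a PBS pool of 3 mice of each genotype. BLT1, encoded by Ltb4r1, is the high-affinity leukotriene B4 receptor, and KRasLA1 is an oncogenic allele that stays silent until sporadic recombination activates it and then gives lung tumors. Every day 60 mouse, PBS-treated mice included, carried KRasLA1 and no day 2 mouse did, so day and tumor allele cannot be told apart. The deletion of BLT1 is given in the labels for the whole mouse, with no cell type named, and no source used here gives the silica dose.

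Levels are the deposited log2 values, on which 1 unit is a doubling of signal, and a silica response is the mean of CS lungs minus the PBS pool of the same genotype. Unless a genotype is named, it is the mean over both BLT1 genotypes. Array medians lay between 8.25 and 8.34. The lung origin was borne out by 12 lung cell markers such as Sftpc, whose levels ran from 9.78 to 14.47 on all arrays, and 0 of these 12 passed the test after silica at either day. Ltb4r1 lay between 7.22 and 7.63 on all 16 arrays. No source used here says whether that probe set falls within the deletion, and it therefore gives no check of genotype. The sex-linked transcripts made 3 arrays stand out. Eif2s3y, which is Y-linked, was at 10.09 in BLT1+/+KRasLA1 CS replicate 2 and at 9.04 and 9.68 in the day 60 pools of BLT1-/-KRasLA1 and BLT1+/+KRasLA1 mice, against 4.27 to 4.74 on the other 13 arrays. Xist, the X-inactivation RNA, was at 6.61 in that CS lung, against 12.75 and 13.03 in the other two lungs of its group. In the day 60 pools of BLT1-/-KRasLA1 and BLT1+/+KRasLA1 mice Xist was at 12.16 and 12.32, so both held both signals. The other day 60 CS lungs held no such Y-linked signal. Sex-linked signal thus differed between CS lungs and pools at day 60, and cannot be told apart from silica in any comparison with these pools. Both day 60 pools enter every day 60 silica response and could not be left out together. Leaving out BLT1+/+KRasLA1 CS replicate 2 widens this difference and is no check of it. Without that CS lung, 6 of the 10 genes were called in the day 60 response and 2 in that of BLT1+/+KRasLA1 lungs alone. Likewise 2 were called in the difference between days and 0 between BLT1 genotypes at day 60. Shares of all genes are not given for that setting, and changes to single calls are given below.

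At day 60, 8 of the 10 genes rose after silica and none fell. They were both PD-1 ligands, Pdcd1, Ctla4, Icos, Havcr2, Tigit and Foxp3. Their changes ran from 0.52 for Tigit to 1.29 for Pdcd1lg2. Over all genes, 3.35% were called higher and 0.677% lower in this comparison. The median change of the 10 genes was 0.74, against -0.03 over all genes. Lag3 and Il10 did not pass. All calls are from limma with Benjamini-Hochberg adjustment over all genes at a threshold of 0.05, and the labels call the CS lungs biological replicates but number no animals, so a p-value reflects the spread between the samples at hand, which may be partly technical. In whole-lung RNA, fewer or more cells of a type and less or more RNA per cell cannot be told apart.

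**Figure D1:**
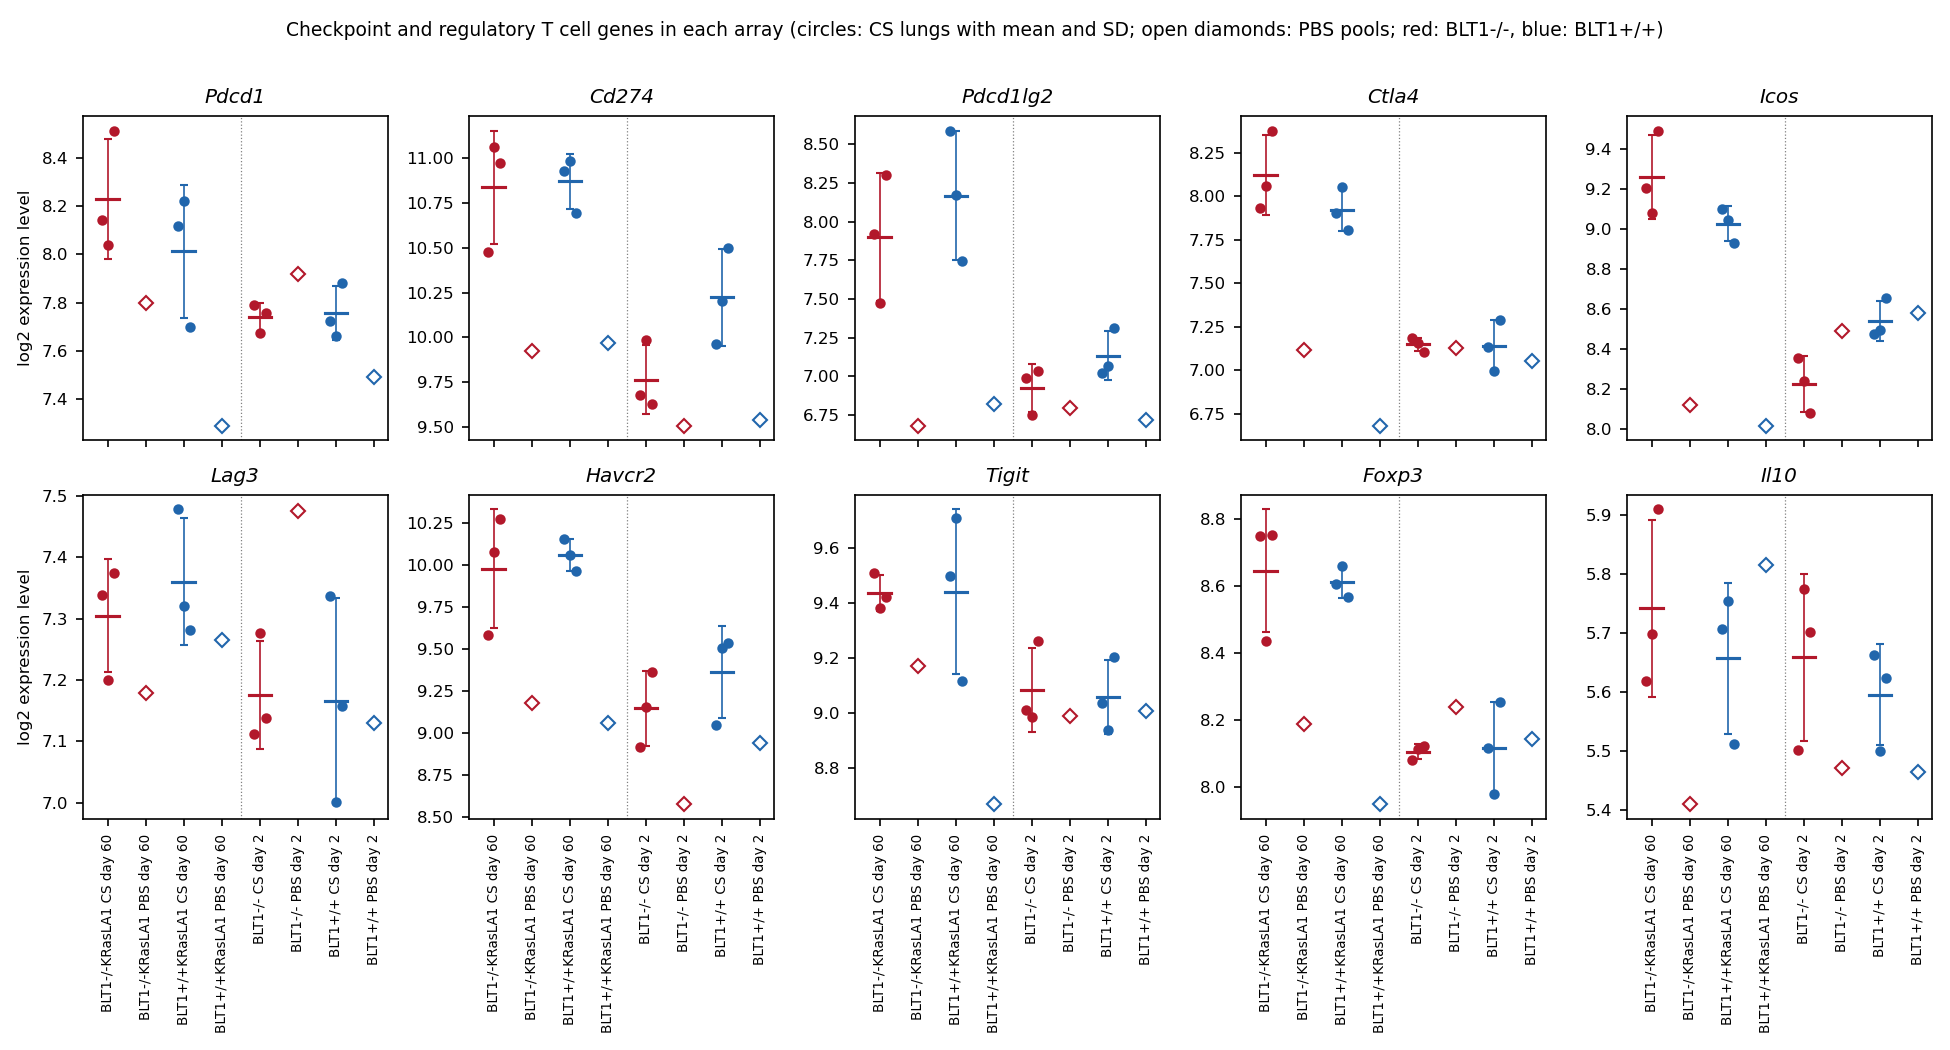
Log2 level (y axis, a scale of its own for each gene) of the 10 genes on each of the 16 arrays, with CS lungs as filled circles (mean and SD, n = 3) and PBS pools as open diamonds, BLT1-/- genotypes in red and BLT1+/+ genotypes in blue. At day 60 the 6 CS lungs lay above both pools for Cd274, Pdcd1lg2, Ctla4, Icos, Havcr2 and Foxp3, while Lag3 and Il10 show no such gap.

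Of the PD-1 ligands, Cd274 was the brighter probe set, at the 76.9th percentile of gene levels. At day 60 it was at 10.48, 11.06 and 10.97 in BLT1-/-KRasLA1 CS lungs and at 10.93, 10.98 and 10.69 in BLT1+/+KRasLA1 CS lungs, against 9.93 and 9.97 in the BLT1-/-KRasLA1 and BLT1+/+KRasLA1 pools. The lowest CS lung was above both pools. The response was 0.91 ± 0.16 (SE, adjusted p = 0.00558), a 1.87-fold rise. At day 2 it was at 9.68, 9.98 and 9.63 in BLT1-/- CS lungs and at 9.96, 10.20 and 10.50 in BLT1+/+ CS lungs, against 9.51 and 9.54 in the BLT1-/- and BLT1+/+ pools. All 6 CS lungs were again above both pools, but the change of 0.47 ± 0.16 did not pass (adjusted p = 0.0763). Over all genes, 12.1% had 6 CS lungs above both pools at day 2 and 9.66% at day 60.

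Pdcd1lg2, whose product PD-L2 is found mainly on macrophages and dendritic cells, had the largest response of the 10 genes at day 60. It was at 7.92, 7.47 and 8.30 in BLT1-/-KRasLA1 CS lungs and at 8.59, 8.17 and 7.75 in BLT1+/+KRasLA1 CS lungs, against 6.68 and 6.82 in the BLT1-/-KRasLA1 and BLT1+/+KRasLA1 pools. The CS lungs differed among themselves more than for any other member, with an SD within CS groups of 0.31, yet none overlapped the pools. The response was 1.29 ± 0.21 (adjusted p = 0.00332), or 2.44-fold. At day 2 the CS lungs lay between 6.75 and 7.31 and the pools at 6.79 and 6.72 (BLT1-/- and BLT1+/+), and the change of 0.28 ± 0.21 did not pass (adjusted p = 0.486).

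Cd274 and Pdcd1lg2 are next to each other on chromosome 19 in the RefSeq gene order. The flanking genes were not called at day 60. Plgrkt, on the Cd274 side, changed by 0.19 ± 0.09 (adjusted p = 0.403), and Ric1, on the Pdcd1lg2 side, by 0.09 ± 0.06 (adjusted p = 0.564). The 250 bases before the RefSeq start of each ligand gene are shown because the genes are neighbours that both rose. Both are on the plus strand of GRCm38.p6, Cd274 at chr19:29367188-29367437 and Pdcd1lg2 at chr19:29410669-29410918, and capitals mark a motif match.
Cd274: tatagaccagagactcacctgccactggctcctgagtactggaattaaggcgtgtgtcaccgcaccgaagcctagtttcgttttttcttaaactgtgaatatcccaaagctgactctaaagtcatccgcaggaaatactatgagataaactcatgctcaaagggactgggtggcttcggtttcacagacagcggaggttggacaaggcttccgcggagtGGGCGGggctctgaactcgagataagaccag
Pdcd1lg2: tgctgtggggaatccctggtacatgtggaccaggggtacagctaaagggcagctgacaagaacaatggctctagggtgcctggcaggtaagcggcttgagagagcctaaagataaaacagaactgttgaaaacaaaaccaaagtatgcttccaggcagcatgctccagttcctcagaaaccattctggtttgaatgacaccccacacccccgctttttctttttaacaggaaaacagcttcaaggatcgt
Both strands of each window were searched for 6 motifs: TTCNNNGAA (STAT), GAAA followed after any 2 bases by GAAA (interferon regulatory factor), TGANTCA (AP-1), GTAAACA (forkhead), TGACGTCA (CREB) and GGGCGG (GC box). The Cd274 window held GGGCGG, starting 31 bases before the start, which 32.74% of 32851 RefSeq promoter windows of this length hold. The Pdcd1lg2 window held none of the 6. The STAT motif was in 7.02% of all windows, the interferon regulatory factor motif in 2.98%, AP-1 in 6.75%, forkhead in 3.17% and CREB in 1.55%. A match describes the letters only.

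Pdcd1, the gene of the PD-1 receptor that these ligands engage, had a smaller response. At day 60 it was at 8.14, 8.04 and 8.51 in BLT1-/-KRasLA1 CS lungs and at 8.12, 8.22 and 7.70 in BLT1+/+KRasLA1 CS lungs, against 7.80 in the pool of BLT1-/-KRasLA1 mice and 7.29 in that of BLT1+/+KRasLA1 mice. Each CS lung was above the pool of its own genotype, but 1 BLT1+/+KRasLA1 CS lung was below the BLT1-/-KRasLA1 pool. The response was 0.58 ± 0.14 (adjusted p = 0.0354), and without BLT1+/+KRasLA1 CS replicate 2, the lung with the Y-linked signal, it was 0.53 and did not pass (adjusted p = 0.0659). The call was also lost without BLT1-/- CS replicate 1 (adjusted p = 0.0518), BLT1-/-KRasLA1 CS replicate 3 (adjusted p = 0.0557) or BLT1+/+KRasLA1 CS replicate 1 (adjusted p = 0.0757). At day 2 the CS lungs lay between 7.66 and 7.88 and the pools at 7.92 (BLT1-/-) and 7.49 (BLT1+/+), a change of 0.04 ± 0.14 (adjusted p = 0.894).

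Ctla4 and Icos, both of the CD28 family, had the smallest p-values of the 10 genes at day 60. CTLA-4 is an inhibitory receptor and ICOS a co-stimulatory receptor that is induced on activated T cells and is high on regulatory T cells. Ctla4 was at 7.93, 8.06 and 8.38 in BLT1-/-KRasLA1 CS lungs and at 7.91, 8.05 and 7.81 in BLT1+/+KRasLA1 CS lungs, against 7.12 in the pool of BLT1-/-KRasLA1 mice and 6.68 in that of BLT1+/+KRasLA1 mice. The gap between the lowest CS lung and the higher pool was wider than the spread of the CS lungs. The response was 1.12 ± 0.12 (adjusted p = 0.000177), or 2.17-fold. At day 2 the CS lungs, at 6.997 to 7.29, took in both pools, at 7.13 (BLT1-/-) and 7.05 (BLT1+/+), with a change of 0.05 ± 0.12 (adjusted p = 0.842).

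Icos at day 60 was at 9.21, 9.08 and 9.49 in BLT1-/-KRasLA1 CS lungs and at 9.10, 9.04 and 8.93 in BLT1+/+KRasLA1 CS lungs, against 8.12 and 8.02 in the BLT1-/-KRasLA1 and BLT1+/+KRasLA1 pools. No CS lung came near the pools. The response was 1.07 ± 0.11 (adjusted p = 0.000163), or 2.10-fold. At day 2 the order was the other way for most lungs. Icos was at 8.36, 8.24 and 8.08 in BLT1-/- CS lungs and at 8.47, 8.50 and 8.66 in BLT1+/+ CS lungs, against 8.49 and 8.58 in the BLT1-/- and BLT1+/+ pools, and the change of -0.15 ± 0.11 did not pass (adjusted p = 0.458).

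On chromosome 1 the RefSeq order is Cd28, Ctla4, Icos and then Pard3b. Cd28, the activating receptor that CTLA-4 opposes, rose by 0.58 ± 0.10 at day 60 (adjusted p = 0.00531) and fell by 0.42 on the log2 scale at day 2 (adjusted p = 0.0162). Pard3b, a cell polarity gene outside the family, was at -0.29 ± 0.09 at day 60 (adjusted p = 0.101). The 3 receptor genes thus rose at day 60 and their neighbour did not pass. The 250 bases before the Ctla4 start are shown as the member with the smallest adjusted p for which a promoter was at hand, on the plus strand of GRCm38.p6 at chr1:60908775-60909024.
Ctla4: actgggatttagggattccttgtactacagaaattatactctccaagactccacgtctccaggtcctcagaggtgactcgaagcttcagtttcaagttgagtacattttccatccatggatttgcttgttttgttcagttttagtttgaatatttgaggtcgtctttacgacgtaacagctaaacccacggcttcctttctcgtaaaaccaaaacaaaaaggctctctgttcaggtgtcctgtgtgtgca
It held none of the 6 motifs. Promoters were at hand for 7 of the 10 genes, not for Icos, Lag3 and Il10, and of the windows not printed, Pdcd1 held GGGCGG starting 77 bases before the start, Havcr2 an AP-1 match at 200 bases and the second of 2 Foxp3 windows a STAT match at 139 bases, while Tigit held none.

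Havcr2 encodes TIM-3, an inhibitory receptor of exhausted T cells that macrophages and dendritic cells also carry. At day 60 it was at 9.59, 10.08 and 10.27 in BLT1-/-KRasLA1 CS lungs and at 10.16, 10.06 and 9.96 in BLT1+/+KRasLA1 CS lungs, against 9.18 and 9.06 in the BLT1-/-KRasLA1 and BLT1+/+KRasLA1 pools. The CS lungs and the pools did not overlap. The response was 0.90 ± 0.17 (adjusted p = 0.00848), or 1.87-fold. At day 2 it was at 8.92, 9.16 and 9.37 in BLT1-/- CS lungs and at 9.05, 9.51 and 9.54 in BLT1+/+ CS lungs, against 8.58 in the pool of BLT1-/- mice and 8.94 in that of BLT1+/+ mice. Each lung was above its own pool, and the change of 0.50 ± 0.17 did not pass (adjusted p = 0.0766), but it did with the replicate number as a block (adjusted p = 0.0315).

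Tigit, an inhibitory receptor of T and NK cells that binds CD155, had a smaller and less even response. At day 60 it was at 9.51, 9.38 and 9.42 in BLT1-/-KRasLA1 CS lungs and at 9.50, 9.71 and 9.12 in BLT1+/+KRasLA1 CS lungs, against 9.17 in the pool of BLT1-/-KRasLA1 mice and 8.67 in that of BLT1+/+KRasLA1 mice. The lowest CS lung was below the higher pool. The response was 0.52 ± 0.13 (adjusted p = 0.0405), or 1.43-fold, and without BLT1+/+KRasLA1 CS replicate 2 it was 0.45 and did not pass (adjusted p = 0.0586). Leaving out 1 of the 12 CS lungs ended the call in 8 of 12 cases, all but those of BLT1-/- CS replicate 3, BLT1+/+KRasLA1 CS replicate 3 and BLT1+/+ CS replicates 1 and 3. Without a pool, in a fit of day 60 arrays only, the response is that of the other genotype alone and not the mean over both. Without the BLT1+/+KRasLA1 pool it was 0.27, and without the BLT1-/-KRasLA1 pool 0.77, and Tigit was not called in either fit. Over 22 alternative settings of the analysis, Tigit was called in 8 and Pdcd1 in 14, against at least 20 for each of the other 6 called genes. At day 2 Tigit was at 8.94 to 9.26 in CS lungs and at 8.99 and 9.01 in the BLT1-/- and BLT1+/+ pools.

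Lag3, an inhibitory receptor that binds MHC class II, differed little between CS lungs and pools. At day 60 it was at 7.34, 7.20 and 7.37 in BLT1-/-KRasLA1 CS lungs and at 7.48, 7.32 and 7.28 in BLT1+/+KRasLA1 CS lungs, against 7.18 and 7.27 in the BLT1-/-KRasLA1 and BLT1+/+KRasLA1 pools. Each lung was above its own pool, but by little. The change was 0.11 ± 0.10 (adjusted p = 0.741), with a 95% interval from -0.11 to 0.33. At day 2 it was -0.13 ± 0.10 (adjusted p = 0.493). Its neighbour on chromosome 6, Cd4, the co-receptor of helper T cells, rose by 0.76 ± 0.14 at day 60 (adjusted p = 0.00593).

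Foxp3, the transcription factor that defines regulatory T cells, was at 8.75, 8.44 and 8.75 in BLT1-/-KRasLA1 CS lungs and at 8.61, 8.66 and 8.57 in BLT1+/+KRasLA1 CS lungs at day 60, against 8.19 in the pool of BLT1-/-KRasLA1 mice and 7.95 in that of BLT1+/+KRasLA1 mice. All 6 CS lungs were above both pools. The response was 0.56 ± 0.10 (adjusted p = 0.00551), or 1.48-fold. At day 2 the CS lungs lay between 7.98 and 8.25 and the pools at 8.24 (BLT1-/-) and 8.14 (BLT1+/+), with a change of -0.08 ± 0.10 (adjusted p = 0.696). Foxp3 lies on chromosome X, and its response still passed without BLT1+/+KRasLA1 CS replicate 2. Both day 60 pools with Y-linked signal stay in that fit, so it cannot speak to an effect of sex.

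Il10, the suppressive cytokine, was the dimmest of the 10 probe sets, at the 6.9th percentile of gene levels, a range in which array signals compress changes. At day 60 it was at 5.62, 5.70 and 5.91 in BLT1-/-KRasLA1 CS lungs and at 5.71, 5.75 and 5.51 in BLT1+/+KRasLA1 CS lungs, against 5.41 in the pool of BLT1-/-KRasLA1 mice and 5.82 in that of BLT1+/+KRasLA1 mice. The CS lungs of the BLT1-/- genotype were above their pool and those of the BLT1+/+ genotype below theirs. The mean change was 0.09 ± 0.11 (adjusted p = 0.809) at day 60 and 0.16 ± 0.11 (adjusted p = 0.406) at day 2.

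At day 2, limma called 0 of the 10 genes in either direction, although 8.03% of all genes were called higher and 4.37% lower. Only Cd274 and Havcr2 had an unadjusted p under 0.05, so 2 of the 10. The median change was 0.06, against -0.02 over all genes.

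**Figure D2:**
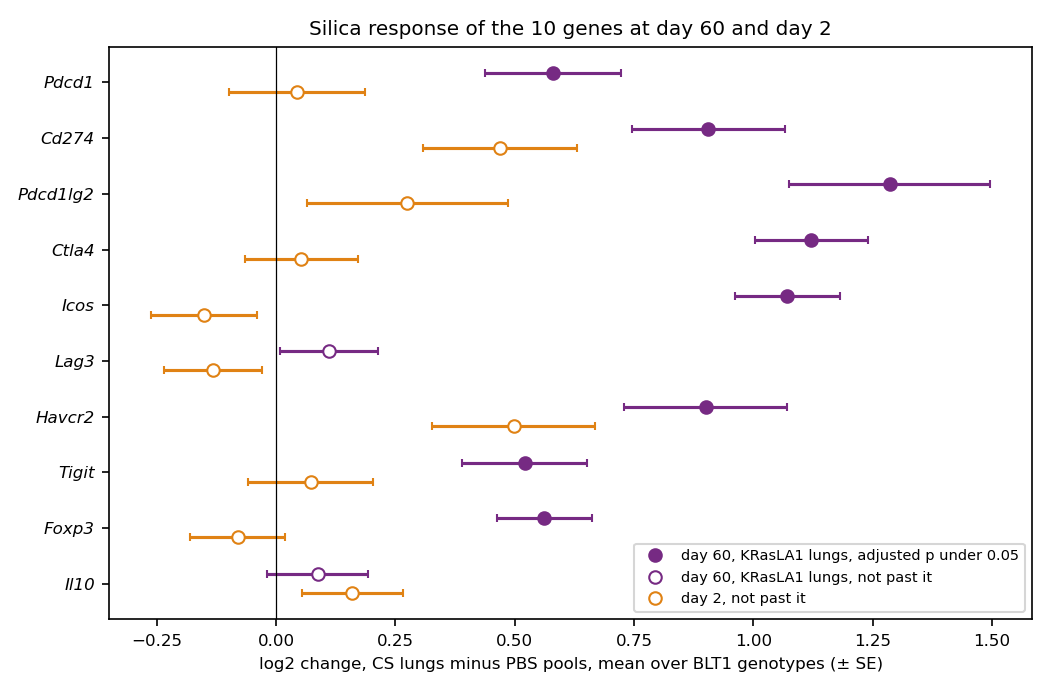
Silica response (x axis, log2 change of CS lungs minus PBS pools, mean over BLT1 genotypes, with SE) of each gene at day 60 in purple and at day 2 in orange, filled where the adjusted p was under 0.05. The 8 filled points all belong to day 60 and lie between 0.52 and 1.29, and no day 2 point is filled.

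The difference of the 2 responses, day 60 minus day 2, was then tested. It passed for 3 of the 10 genes, all higher at day 60, where 1.70% of all genes passed in that direction. These were Icos (1.22 ± 0.16, adjusted p = 0.00183), Ctla4 (1.07 ± 0.17, adjusted p = 0.00500) and Foxp3 (0.64 ± 0.14, adjusted p = 0.0305). The difference for Foxp3 did not pass without BLT1+/+KRasLA1 CS replicate 2 (0.63, adjusted p = 0.0537), BLT1-/-KRasLA1 CS replicate 3 (0.62, adjusted p = 0.0546) or BLT1+/+KRasLA1 CS replicate 1 (0.64, adjusted p = 0.0552), while its size was about the same. For Pdcd1lg2 it was 1.01 ± 0.30 (adjusted p = 0.110), and for Cd274 and Havcr2, which were at 0.47 and 0.50 at day 2, 0.44 ± 0.23 (adjusted p = 0.430) and 0.40 ± 0.24 (adjusted p = 0.525).

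The CS lungs of the 2 days can also be compared without any pool, as 6 lungs against 6. In day 60 CS lungs 8 of the 10 genes were higher than in day 2 CS lungs, where 12.2% of all genes were called higher and 13.8% lower. The differences were 1.01 ± 0.15 for Pdcd1lg2, 0.88 ± 0.08 for Ctla4, 0.86 ± 0.11 for Cd274, 0.76 ± 0.08 for Icos, 0.76 ± 0.12 for Havcr2, 0.52 ± 0.07 for Foxp3, 0.37 ± 0.10 for Pdcd1 and 0.37 ± 0.09 for Tigit. The adjusted p was at most 0.0134 among these 8. Lag3 (0.16 ± 0.07, adjusted p = 0.125) and Il10 (0.07 ± 0.08, adjusted p = 0.553) did not pass. The lungs of the 2 days did not overlap for Pdcd1lg2, Ctla4, Icos, Havcr2 and Foxp3, as for 6.47% of all genes in this direction. Leaving out each CS lung in turn, BLT1+/+KRasLA1 CS replicate 2 included, left the count at 8.

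The PBS pools themselves, day 60 minus day 2, gave 0 of the 10 genes in limma, with 1 unadjusted p under 0.05, against 0.396% of all genes called in either direction. That gene was Icos, at 8.12 and 8.02 in the day 60 pools and 8.49 and 8.58 in the day 2 pools (BLT1-/- and BLT1+/+ genotypes in each case). The difference of -0.46 ± 0.13 (adjusted p = 0.184) enters the day 60 minus day 2 difference in the response of Icos. These comparisons share arrays with the silica responses.

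Within single genotypes, where 3 lungs meet 1 pool, fewer genes passed at day 60. In BLT1-/-KRasLA1 lungs 2 of the 10 rose, Icos (1.14 ± 0.16, adjusted p = 0.00408) and Ctla4 (1.00 ± 0.17, adjusted p = 0.0133), where 1.10% of all genes rose. In BLT1+/+KRasLA1 lungs 3 of the 10 rose, Ctla4 (1.24 ± 0.17, adjusted p = 0.00455), Icos (1.01 ± 0.16, adjusted p = 0.0116) and Foxp3 (0.66 ± 0.14, adjusted p = 0.0488), where 0.687% of all genes rose. This Foxp3 call held in 9 of 20 alternative settings, with changes of 0.64 to 0.71. It was lost with the replicate block (adjusted p = 0.0637), without the variance trend (adjusted p = 0.0536), with only the day 60 arrays (adjusted p = 0.119) and without any of 8 CS lungs, BLT1+/+KRasLA1 CS replicate 2 among them (adjusted p = 0.148). Pdcd1lg2 was at 1.22 ± 0.30 in BLT1-/-KRasLA1 lungs (adjusted p = 0.0751) and 1.35 ± 0.30 in BLT1+/+KRasLA1 lungs (adjusted p = 0.0590). Cd274 was at 0.91 ± 0.23 and 0.90 ± 0.23 in these genotypes (adjusted p = 0.0813 and 0.106). At day 2, 0 of the 10 passed in BLT1-/- lungs and 0 in BLT1+/+ lungs, with 1 unadjusted p under 0.05 in each, while 5.19% of all genes were called higher and 1.40% lower in BLT1-/- lungs, and 0.853% higher and 0.311% lower in BLT1+/+ lungs.

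BLT1 was compared directly among CS lungs, 3 against 3. At day 60, 0 of the 10 genes differed between BLT1-/-KRasLA1 and BLT1+/+KRasLA1 CS lungs in limma, with 0 at an unadjusted p under 0.05, where 0.0401% of all genes were called in either direction. The largest difference was that of Pdcd1lg2, at 7.90 ± 0.41 in BLT1-/-KRasLA1 CS lungs and 8.17 ± 0.42 in BLT1+/+KRasLA1 CS lungs (SD, n = 3 each), -0.27 with a 95% interval from -0.72 to 0.18. Icos, at 9.26 ± 0.21 and 9.03 ± 0.09 in these groups (SD, n = 3 each), differed by 0.23 with an interval from 0.00 to 0.47. Foxp3 differed by 0.03, with an interval from -0.18 to 0.25, and Tigit by 0.00, with an interval from -0.28 to 0.28. The intervals of Ctla4 (-0.06 to 0.45) and Cd274 (-0.38 to 0.31) also took in 0.

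At day 2, 0 of the 10 genes differed between BLT1-/- and BLT1+/+ CS lungs in limma, with 2 at an unadjusted p under 0.05, where 0.0201% of all genes were called. These were Cd274, at 9.77 ± 0.19 in BLT1-/- CS lungs and 10.22 ± 0.27 in BLT1+/+ CS lungs (SD, n = 3 each), and Icos, at 8.23 ± 0.14 in BLT1-/- CS lungs and 8.54 ± 0.10 in BLT1+/+ CS lungs (SD, n = 3 each). Cd274 differed by -0.46, with a 95% interval from -0.80 to -0.11 (adjusted p = 0.406), and the lungs overlapped as groups. The labels state no pairing of lungs between genotypes. When lungs were matched by replicate number, Cd274 was lower in BLT1-/- lungs in 3 of 3 pairs, by -0.28, -0.22 and -0.87. Its adjusted p in limma was 0.251 with the replicate block. Pdcd1lg2, Havcr2 and Icos were also lower in 3 of 3 pairs, with adjusted p = 0.807, 0.610 and 0.331 with the block. The share of all genes lower in 3 of 3 pairs is not given here, so these directions are no result about the members. Icos differed by -0.32, with an interval from -0.55 to -0.08 (adjusted p = 0.406), and every BLT1-/- lung was below every BLT1+/+ lung, as for 6.13% of all genes. The BLT1 by silica interaction called 0 of the 10 genes at either day in limma, like 0.00% of all genes, with 1 unadjusted p under 0.05 at day 60, that of Il10, and 0 at day 2.

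**Figure D3:**
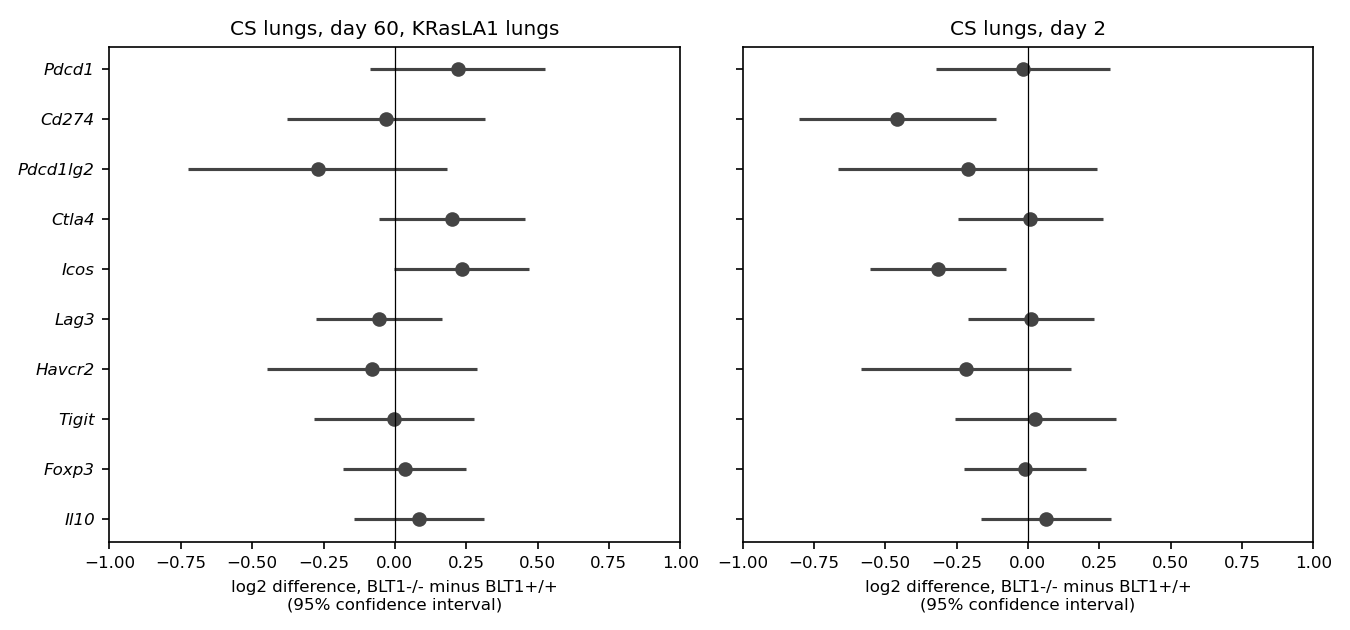
Difference between BLT1 genotypes among CS lungs (x axis, log2, BLT1-/- minus BLT1+/+, with the 95% confidence interval) for each gene at day 60 in lungs with KRasLA1 (left) and at day 2 (right). At day 60 all 10 intervals include 0, and at day 2 those of Cd274 and Icos lie below 0 before adjustment over all genes.

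The partner genes of these receptors were followed by lists of pathway genes. Beside the counts of these lists and of the marker lists below stand the shares over all genes. At day 60, 3.35% of all genes were called higher and 0.677% lower, and at day 2, 8.03% higher and 4.37% lower. A count near these shares, as for some lists at day 2, is no result about the list. Of 10 B7 and CD28 family genes, 3 rose and 0 fell at day 60, with a median of 0.26. They were Cd86 (0.87 ± 0.13, adjusted p = 0.00164) and Cd80 (0.95 ± 0.24, adjusted p = 0.0377), the shared ligands of CD28 and CTLA-4, and Cd28. Without BLT1+/+KRasLA1 CS replicate 2, Cd80 was at 0.95 and did not pass (adjusted p = 0.0656). At day 2, 1 rose and 2 fell, with a median of -0.19. Cd80 rose already then (1.29 ± 0.24, adjusted p = 0.00364), while Btla, an inhibitory receptor of lymphocytes, fell by 1.10 on the log2 scale (adjusted p = 0.000255), beside Cd28. Icosl, the ligand of ICOS, was at 0.23 ± 0.12 at day 60 (adjusted p = 0.429).

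Of 22 measured ligands and partners of LAG-3, TIM-3, TIGIT and other inhibitory receptors, 6 rose and 1 fell at day 60 (median 0.23), and 4 rose and 3 fell at day 2 (median 0.03). Slamf6, a receptor of T and B cells (0.98 ± 0.09, adjusted p = 7.43e-05), Klrg1, an inhibitory receptor of effector T and NK cells (1.10 ± 0.11), and Lgals3, a galectin that binds LAG-3 (0.75 ± 0.13), rose at day 60, and Nectin3 fell by 0.31 on the log2 scale. At day 2 Fgl1, a LAG-3 ligand (0.86 ± 0.09, adjusted p = 0.000117), Vsig4, a macrophage inhibitory ligand (0.86 ± 0.19), and Lgals3 (0.51 ± 0.13) rose, and Slamf6 fell by 0.69, Cd96 by 0.67 and Cd226 by 0.65 on the log2 scale. Cd96 and Cd226 share ligands with TIGIT. Thus Slamf6 was called in opposite directions at the 2 days.

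Of 14 TNF family co-stimulatory genes, 4 rose at day 60 and 2 at day 2, and none fell, with medians of 0.21 and 0.00. Tnfrsf9 (4-1BB), a receptor induced on activated and regulatory T cells, rose by 1.41 ± 0.14 at day 60 (adjusted p = 0.000136) and 0.79 ± 0.14 at day 2 (adjusted p = 0.00312). Tnfrsf4 (OX40, 0.63 ± 0.11) and Tnfrsf18 (GITR, 0.54 ± 0.09), both high on regulatory T cells, rose at day 60, and Tnfsf9, the ligand of 4-1BB, rose at day 2 (0.88 ± 0.16).

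Of 21 further genes known from regulatory T cells, 8 rose and 0 fell at day 60, with a median of 0.24. Il2ra (CD25), the high-affinity IL-2 receptor chain, rose by 1.40 ± 0.14 (adjusted p = 0.000100), Capg, an actin-capping protein, by 0.89 ± 0.13 and Itgae (CD103), an integrin of tissue-resident T cells and some dendritic cells, by 0.63 ± 0.09. The transcription factor genes Ikzf2 (0.22 ± 0.11, adjusted p = 0.422) and Ikzf4 (0.04 ± 0.10, adjusted p = 0.915) did not pass, nor did Lrrc32, which presents latent TGF-beta (0.09 ± 0.15, adjusted p = 0.872). At day 2, 1 rose and 3 fell, with a median of -0.06. Capg rose (0.43 ± 0.13, adjusted p = 0.0423), and Il2rb, an IL-2 receptor chain shared with NK cells, fell by 0.63, Itgae by 0.32 and Nrp1 by 0.27 on the log2 scale.

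Around Il10, 3 of 16 measured IL-10 pathway and family genes rose at day 60 and 0 fell, and 4 rose and 1 fell at day 2. Il10ra, the ligand-binding receptor chain, rose by 0.57 ± 0.12 at day 60 (adjusted p = 0.0187) and fell by 0.42 on the log2 scale at day 2 (adjusted p = 0.0407). Bcl3 rose by 0.96 ± 0.12 at day 60 and 0.86 ± 0.12 at day 2. Socs3, a STAT3 feedback gene that other cytokines also induce, rose by 0.65 ± 0.14 at day 60 and 1.10 ± 0.14 at day 2, and Nfil3 rose at day 2 (0.65 ± 0.16). The medians of the list were 0.14 at day 60 and -0.03 at day 2.

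Of 15 metabolic and secreted suppressors, 6 rose and 0 fell at day 60 (median 0.24), and 7 rose and 1 fell at day 2 (median 0.17). Gpnmb, a macrophage glycoprotein (1.92 ± 0.22, adjusted p = 0.000324), Il1rn, the IL-1 receptor antagonist (1.56 ± 0.25), and Nos2 (0.53 ± 0.12) led at day 60, and Il1rn (2.22 ± 0.25), Ptges (0.90 ± 0.11) and Lgals1 (0.49 ± 0.06) at day 2, when Tgfb3 fell by 0.37 on the log2 scale. Of 16 regulators of T cell activation and exhaustion, 4 rose and 0 fell at day 60 (median 0.15), among them Cd69 (1.03 ± 0.15), Irf4 (0.97 ± 0.18) and Nr4a3 (0.78 ± 0.12). At day 2, 0 rose and 6 fell (median -0.30), among them Cd69, which fell by 0.76, Tbx21 by 0.46 and Pdcd4 by 0.46 on the log2 scale.

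Interferon gamma is a known inducer of PD-L1. Of 13 measured genes of its axis, 6 rose and 1 fell at day 60 (median 0.25), and 2 rose and 2 fell at day 2 (median -0.01). Ifng itself was at 0.12 ± 0.09 at day 60 (adjusted p = 0.662) and -0.01 ± 0.09 at day 2 (adjusted p = 0.955). The interferon-induced chemokine Cxcl9 rose by 2.12 ± 0.33 at day 60 (adjusted p = 0.00240), with Ifngr2 (0.31 ± 0.05) and Ciita (0.53 ± 0.11), and Il18 fell by 0.48 on the log2 scale. At day 2 Cxcl10 (3.01 ± 0.45) and Jak2 (0.22 ± 0.06) rose, and Ciita fell by 0.46 and Il12rb2 by 0.35 on the log2 scale.

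Markers of the cells that can carry these genes were read on the same arrays. Of 18 T cell markers, 10 rose and 0 fell at day 60 (median 0.50), among them Il7r (1.40 ± 0.20), Cd3g (1.03 ± 0.15) and Cd5 (0.58 ± 0.10). The mean level of the list on an array lay between 8.45 and 8.95 in day 60 CS lungs, against 8.15 and 8.17 in the pools. At day 2, 0 rose and 13 fell (median -0.49), among them Cd3g, which fell by 0.90, Cd8b1 by 0.85 and Cd3e by 0.72 on the log2 scale. The mean level was then 7.90 to 8.23 in CS lungs, against 8.52 and 8.59 in the pools. Every T cell marker read on these arrays had a signal level, as RMA values have no true 0.

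Beside these markers, Ctla4 and Icos had a larger change at day 60 than 17 of the 18 T cell markers, Pdcd1 than 12, and Foxp3 and Tigit than 11, while Lag3 had a smaller change than all 18. At day 2 all 10 genes, at -0.15 to 0.50, were above all 18 T cell markers, whose changes ran from -0.96 to -0.24. Between the CS lungs of the 2 days, where no pool is used, the median of the T cell markers was 0.61. There Ctla4 had a larger change than 15 of the 18 markers and Icos than 14. Foxp3 had a larger change than only 5, Pdcd1 than 3, Tigit than 1 and Lag3 than 0. These are values set side by side and not tests. The part of T cell markers in the members' values was not tested.

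Macrophage markers also moved. At day 60, 11 of 16 rose and 0 fell (median 0.76), among them Cd68 (1.04 ± 0.14), C1qb (0.98 ± 0.13) and C1qc (0.84 ± 0.13), and the mean level of the list was 10.60 to 11.01 in CS lungs, against 10.07 to 10.16 in the pools. At day 2, 5 rose and 2 fell (median 0.26), Cd14 (1.77 ± 0.19), Marco (0.95 ± 0.18) and Cd68 (0.63 ± 0.14) upwards and Siglecf (-0.35) and Ccr2 (-0.38) downwards, with 10.22 to 10.57 in CS lungs, against 10.04 to 10.07 in the pools. Cd274 and Havcr2, which T cells, macrophages and dendritic cells can all carry, had a larger change than 10 of the 16 macrophage markers at day 60 and than 11 at day 2. The part of macrophage markers was not tested either.

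Markers of other cell classes were counted in the same way, and their difference between the days was not tested. Of 12 NK cell markers, 2 rose at day 60 (Ccl5 and Xcl1, median of the list 0.18) and 10 fell at day 2 (median -0.90), with Ccl5 at -0.85, Gzma at -1.02 and Klrd1 at -1.01. Of 11 B cell markers, 1 rose at day 60 (Fcer2a, 1.35 ± 0.18, median of the list 0.53) and 10 fell at day 2 (median -1.12). Of 15 dendritic cell markers, 7 rose and 1 fell at day 60 (median 0.36), led by Ccl22 (1.18 ± 0.13) and Fscn1 (1.11 ± 0.13), with Cd209a at -0.66, and 2 rose and 9 fell at day 2 (median -0.38). Of 12 neutrophil markers, 3 rose at day 60 (S100a8, Cxcr2 and Mmp9) and 1 at day 2 (Il1r2), when 8.03% of all genes rose. The middle genes of that list at day 60, Csf3r and Il1r2, were both at 1.01 and did not pass, a larger change than the median of the 10 genes. Of 10 thymus markers, a check for adjoining thymus, 1 rose at day 60 (Themis, 0.69 ± 0.16, a gene that mature T cells also express) and 2 fell at day 2 (Themis and Cd1d1).

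**Figure D4:**
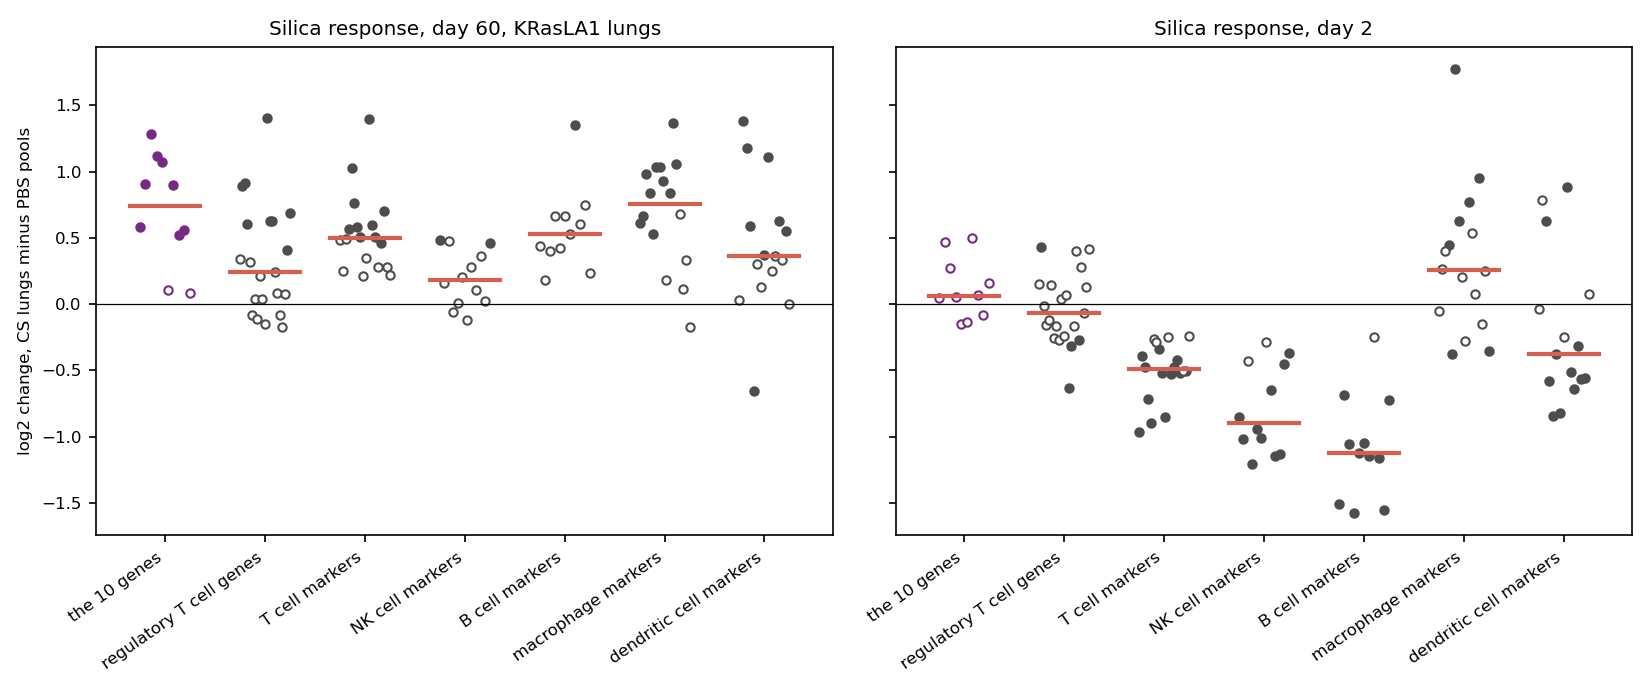
Silica response (y axis, log2 change of CS lungs minus PBS pools, mean over BLT1 genotypes) of the 10 genes (purple) and of every measured gene of 6 lists (grey) at day 60 (left) and day 2 (right), filled where the adjusted p was under 0.05, with each list's median as a red bar. At day 60 the median was 0.74 for the 10 genes, 0.50 for T cell markers and 0.76 for macrophage markers, and at day 2 it was 0.06, -0.49 and 0.26.

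Among the 8 members called at day 60, Pearson r across the 8 group means was lowest for Pdcd1 and Havcr2 (r = 0.59). Ctla4 and Foxp3 were the closest pair (r = 0.98), followed by Cd274 and Havcr2 (r = 0.97). Lag3 and Il10, with the smallest spans of group means, had a lower r in every pair. Lag3 and Havcr2 had r = 0.03 and Il10 had r = -0.04 with Pdcd1. These values describe 8 means from 16 arrays, with 4 of the means from 1 pool each and the day 60 CS groups high for most members, so no test is attached. Over all genes, the closest to Cd274 were Clec7a, a fungal glucan receptor of myeloid cells (r = 0.99), Cd68 (r = 0.98) and Clcn7, a lysosomal chloride exchanger (r = 0.98). Havcr2 shared Clcn7 (r = 0.99), beside Rhov (r = 0.99) and Atp6v1c1, a subunit of the lysosomal proton pump (r = 0.98). Pdcd1lg2 was closest to Cd300a, Dtx3l and Gusb (r = 0.99, 0.99 and 0.98).

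The T cell genes had other neighbours by this measure. Icos was closest to Il7r (r = 0.98), Lpxn (r = 0.98) and Tnfrsf18 (r = 0.97). Ctla4 was closest to Ptpn7, a phosphatase of lymphocytes (r = 0.98), Foxp3 (r = 0.98) and Prg2 (r = 0.96), and Foxp3 to Ctla4, Prg2 (r = 0.97) and Ptpn7 (r = 0.97). Tigit was closest to Prg2 (r = 0.95), Eaf2 (r = 0.94) and Ctla4 (r = 0.94), and Pdcd1 to Calhm6 (r = 0.97), Slc6a12 (r = 0.95) and Klk1b27 (r = 0.94). Lag3 and Il10 spanned less than 0.5 over the group means, at 0.35 and 0.41, and were not ranked.

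The day 60 counts differed between settings. Without the BLT1-/-KRasLA1 pool 2 of the 10 genes were called, Ctla4 and Icos, and without the BLT1+/+KRasLA1 pool 1, Icos, in a fit of the remaining arrays of that day only, where the response is that of the other genotype alone. With both pools kept and only the day 60 arrays, the BLT1-/-KRasLA1 and BLT1+/+KRasLA1 responses likewise called 1 and 2 genes. Without BLT1+/+KRasLA1 CS replicate 2, 6 were called, all but Pdcd1 and Tigit, and the lists above lost between 0 and 2 calls each, with Csf3r (neutrophil) and Marco (macrophage) newly called. Xcl1 was among those lost (0.45, adjusted p = 0.0587). The 8 members called on all arrays kept a positive change in each of these settings. The share of all genes called in these settings is not given here.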

How the data were processed

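Total RNA of 16 lung samples was hybridised as biotin-labelled cRNA, 1 array each. The authors deposited log2 expression values per probe set, and per the submitters' processing notes these came from Partek 6.6 by RMA. RMA forces all arrays onto 1 distribution, which hides any change in the total RNA of a lung, and it compresses changes of dim probe sets. No source used here gives the array's build or the order of steps.

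The table holds 35556 probe sets. Those with 1 gene symbol (21789) were used, and those with several (1621) or none (12146) were not. The platform annotation named them, and 21698 were found in a RefSeq table of GRCm38.p6, with 0 symbols updated. The probe set with the highest mean was kept for each gene, which left 19938 genes. Promoters are from the RefSeq table of the same build.

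With limma 3.58.1 in R 4.3.3, means of 8 groups were fitted to all 16 arrays (lmFit, eBayes with trend, 8 residual degrees of freedom from the CS lungs), and 13 contrasts were tested two-sided with Benjamini-Hochberg adjustment over all genes. Each PBS pool stands alone, and its spread was taken to be that of single CS lungs. Precision is limited by the number of arrays. The script was tested on simulated data.

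The 10 members and 16 lists of related genes (247 genes, 231 measured, 4 only on probe sets with several genes) were chosen with earlier results of these data known. The text names the members, up to 3 genes per list, response and direction with the smallest p, and the 3 genes closest to each member by group means; genes of the lists or neighbours that did not pass were named for their role after their values were seen.

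The labels state no pairing by replicate number. Deviations of day 2 lungs from group means correlated at 0.43, 0.20 and 0.34 between BLT1-/- and BLT1+/+ lungs of the same number. Day 2 lungs of unlike number were at -0.40 to 0.10. At day 60, lungs of the same number were at 0.09, 0.01 and 0.06. Alternatives were another variance setting, probe set rule, normalization or dim filter, arrays of 1 day, array weights, a replicate block and leaving out each array. Counts of the lists without BLT1+/+KRasLA1 CS replicate 2 were added after seeing the data.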

Additional observations from a re-analysis of the deposited data

Results flagged for a closer look

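In all, 3 genes had a larger silica response at day 60 than at day 2 by the test of the difference itself. The difference was 1.07 for Ctla4 (adjusted p = 0.00500), 1.22 for Icos (adjusted p = 0.00183) and 0.64 for Foxp3 (adjusted p = 0.0305), in limma. The Foxp3 call was lost without BLT1+/+KRasLA1 CS replicate 2 (adjusted p = 0.0537), BLT1-/-KRasLA1 CS replicate 3 (0.0546) or BLT1+/+KRasLA1 CS replicate 1 (0.0552).

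In 7 further cases all 3 lungs of a group lay on the opposite side of their pool from all 3 lungs of the group they are set against. How often this occurred over all genes is not given here, so the number of cases is no result about the members. Between BLT1 genotypes, the response of Pdcd1 at day 2 was -0.18 in BLT1-/- lungs and 0.27 in BLT1+/+ lungs, a difference of -0.44 (adjusted p = 0.820). The response of Il10 at day 60 was 0.33 in BLT1-/-KRasLA1 lungs and -0.16 in BLT1+/+KRasLA1 lungs, a difference of 0.49 (adjusted p = 1.00).

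Between days in BLT1-/- genotypes, the response at day 60 minus that at day 2 was 1.40 for Icos (1.14 against -0.26), the only one of these 7 to pass (adjusted p = 0.0180). It was 0.61 for Pdcd1 (0.44 against -0.18, adjusted p = 0.337), 0.43 for Lag3 (0.13 against -0.30, adjusted p = 0.361) and 0.59 for Foxp3 (0.46 against -0.13, adjusted p = 0.184). In BLT1+/+ genotypes it was -0.29 for Il10 (-0.16 against 0.13, adjusted p = 1.00). Outside these 7 cases, the difference for Icos in BLT1+/+ genotypes was 1.05 ± 0.22 (adjusted p = 0.175). For Ctla4 it was 0.98 ± 0.24 in BLT1-/- genotypes (adjusted p = 0.0731) and 1.15 ± 0.24 in BLT1+/+ genotypes (adjusted p = 0.156). Each of these rests on 1 pool per genotype and day.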

How the results depend on the processing

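Over 2584 values of the 10 genes under alternative settings, 2508 kept their side of the threshold, of which 2453 also kept their direction and 55, called in neither setting, changed sign. A further 46 no longer passed, 30 newly passed and 0 called values changed sign. Most of the values were not called in the main fit, so the 2508 say little about how well the called ones held. Each member has 1 probe set, so the probe set rule could not change its log2 change. Of the 10 genes, the day 60 response called between 1 and 8 when an array was left out, with 2 without the BLT1-/-KRasLA1 pool and 1 without the BLT1+/+KRasLA1 pool. At day 2 it called 0 to 2 when an array was left out, with 2 (Cd274 and Havcr2) without BLT1-/-KRasLA1 CS replicate 1 or without BLT1+/+ CS replicate 1, 1 (Cd274) with array weights and 1 (Havcr2) with the replicate block. In BLT1-/-KRasLA1 lungs at day 60 it called 1 with only the day 60 arrays, 5 with array weights and 2 to 4 when an array was left out (4 without BLT1-/-KRasLA1 CS replicate 1). In BLT1+/+KRasLA1 lungs it called 8 with array weights and 2 to 6 when an array was left out (5 without BLT1-/-KRasLA1 CS replicate 1 and 6 without BLT1+/+KRasLA1 CS replicate 3). With the replicate block, for which the labels state no pairing, the day 60 response called 7 genes in limma, Pdcd1 being lost (adjusted p = 0.0679). With that block the difference between days called 3, CS lungs between days 8 and the BLT1 differences and interactions 0. The difference between days called 2 to 4 genes when an array was left out. The share of all genes called under each of these settings is not given here. These counts therefore do not show whether the members shifted more than other genes. The causes of these shifts were not tested.

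The PBS groups are 1 pool each, so every silica response rests on 2 pools that are assumed to vary like single lungs. Signal over background is not given for these values. Il10 lies among the dimmest genes, so a small change in it could not be seen here.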
